A study of Mus musculus with 20 samples.

Results

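The Slc25 genes encode the mitochondrial carrier family, proteins of the inner mitochondrial membrane that exchange metabolites, nucleotides, cofactors and ions between the matrix and the cytosol. In liver these carriers link the matrix to gluconeogenesis, to urea synthesis and to the export of citrate for lipid synthesis. The carriers of aspartate and glutamate are part of the malate-aspartate shuttle, which moves reducing equivalents, and the adenine nucleotide translocators exchange ATP for ADP.

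All genes called Slc25a followed by a number in the probe annotation of the array were taken, except Slc25a20, the carnitine and acylcarnitine carrier. Members were taken by name, though the family was chosen with earlier results of these data known. Of the 18193 genes on the array, 43 met this rule. Each gene was read from its brightest probe set by mean log2 level over the 20 arrays, in units of intensity after GCRMA, the authors' background correction and normalization. The tests took in genes with more than 16 units on 5 or more arrays, which left 31 members among 8774 genes. The other 12 members were Slc25a2, Slc25a14, Slc25a18, Slc25a24, Slc25a27, Slc25a29, Slc25a31, Slc25a35, Slc25a41, Slc25a48, Slc25a53 and Slc25a54. Of these, 10 lay under 16 units on all 20 arrays, and their highest reading was 19.5 units, of Slc25a29. Among those tested, 26 exceeded 16 units on all 20 arrays, while Slc25a40 did so on 10, Slc25a36 on 11, Slc25a34 on 12, Slc25a26 on 15 and Slc25a23 on 17. Counts below are over the 31 tested members, some of which entered only through the groups in which they read above this floor.

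The arrays measured liver RNA of 20 male mice, 50 to 60 days old, on a mixed BL6/SV129 background, with 1 array per mouse. The 4 groups of 5 mice were wild type with vehicle, wild type with lipopolysaccharide (LPS, a molecule of bacterial outer membranes that sets off inflammation), mcad-/- with vehicle and mcad-/- with LPS. Acadm, the gene lost in mcad-/- mice, encodes the medium-chain acyl-CoA dehydrogenase of fatty acid oxidation. LPS was given at 100 µg per 20 g of body weight, and all 4 groups, controls included, were then fasted for 12 h. Whether the wild type mice were littermates of the knockouts is not stated in the sources used here, so that strain alleles carried along with the knockout and the loss of Acadm cannot be told apart in any comparison of genotypes.

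Acadm checked the genotype labels: with vehicle it read 3106 to 4022 units in wild type but 9.03 to 80.2 in the knockouts, and with LPS 1450 to 2375 against 14.3 to 218 units (97.3-fold and 43.6-fold lower; exact permutation test, two-sided, p = 0.00794 for each, the smallest that 252 regroupings can give). The liver label fitted the hepatocyte markers, whose mean log2 level lay between 13.35 and 13.73 on all 20 arrays. Some arrays stood apart. Wild type LPS mouse 2 carried muscle transcripts, with Acta1 at 309 units against 4.48 to 7.87 units on all other arrays, and wild type LPS mouse 5 carried Adipoq at 19.8 units against at most 3.49 units elsewhere. Wild type vehicle mouse 3 and wild type LPS mouse 4 had the highest actin control ratios (3' over 5' signal, a sign of RNA quality), 3.18 and 3.69 on the log2 scale. Results that depend on these mice are given with and without them.

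LPS lowered more carriers than it raised in both genotypes. In wild type mice 11 of 31 members fell (35.5%) and 4 rose (12.9%), while 24% of all tested genes fell and 40% rose (64% in either direction). In mcad-/- mice 15 members fell (48.4%) and 3 rose (9.68%), against 27.6% and 38.1% of all tested genes (65.7% in either direction). The median log2 change of the members was -0.21 in wild type and -0.47 in mcad-/- mice, beside 0.18 and 0.14 for all tested genes. The 9 members that fell in both genotypes were Slc25a5, Slc25a10, Slc25a11, Slc25a13, Slc25a16, Slc25a23, Slc25a25, Slc25a33 and Slc25a42, and the 2 that rose in both were Slc25a1 and Slc25a12. The control groups of the 2 comparisons are different mice. The LPS and vehicle groups did not overlap for 7 lower and 3 higher members in wild type (17.3% and 28.9% of all tested genes) and for 9 lower and 1 higher member in mcad-/- mice (21.7% and 29.6% of all tested genes). All of these also passed the test described next except Slc25a3, higher in wild type without overlap at an adjusted p of 0.113. Adjusted p-values here and below are two-sided Benjamini-Hochberg values over 8774 genes from 1 limma model of all 4 groups, and a member was said to have risen or fallen when its adjusted p was under 0.05. Without the mice with the high actin ratio, 12 members fell and 3 rose in wild type and 16 fell and 3 rose in mcad-/- mice. Without the mice with muscle or adipose transcripts the counts were 10 and 3, and 15 and 4.

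**Figure D1:**
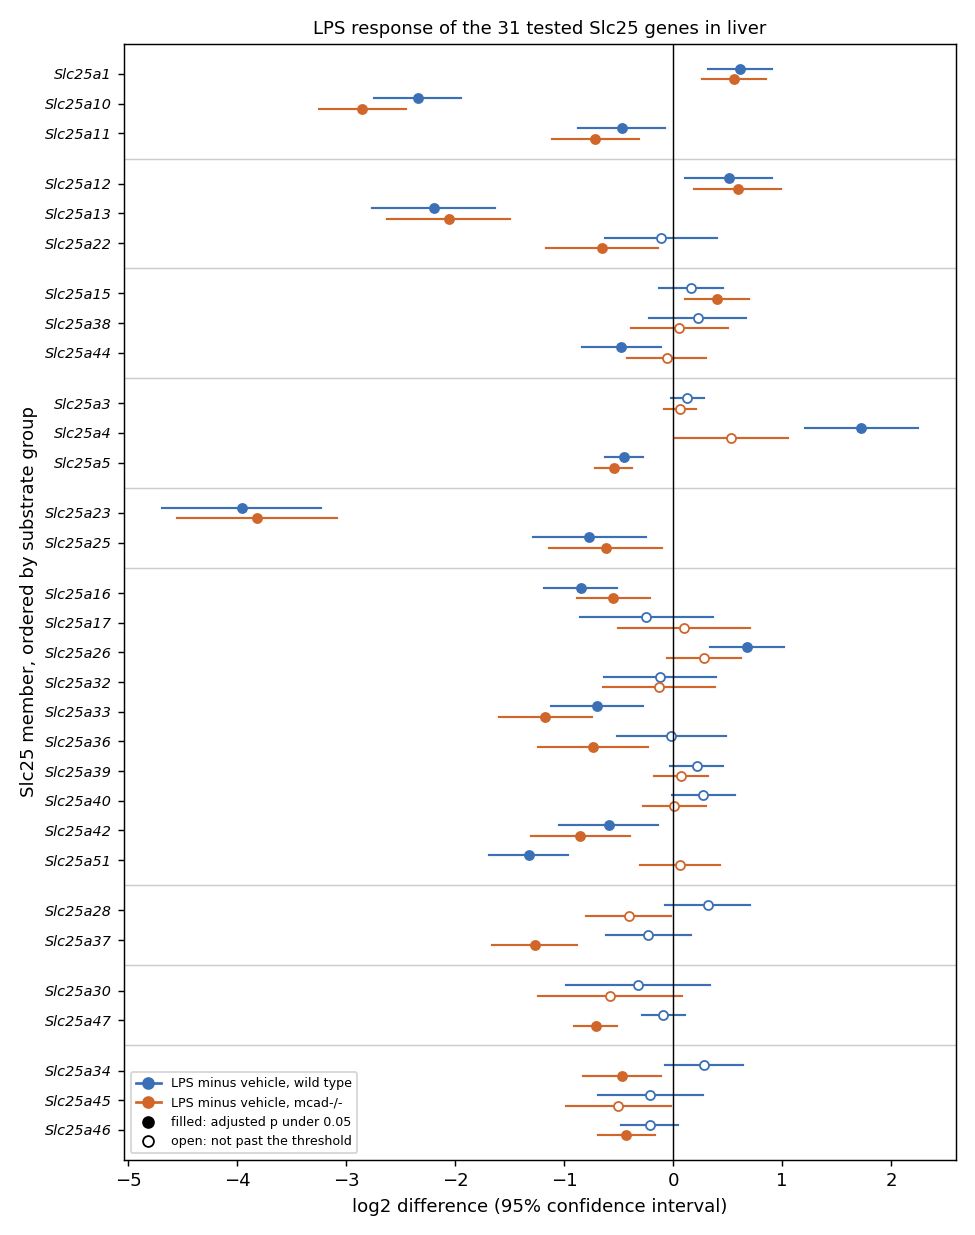
Log2 difference between LPS and vehicle for each of the 31 tested members in wild type and in mcad-/- mice, ordered by transported substrate; bars are 95% confidence intervals and filled points have an adjusted p under 0.05. Slc25a23, Slc25a10 and Slc25a13 lie farthest to the left in both genotypes, between -3.96 and -2.06.

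The largest falls were of 3 carriers that serve the exchange of carboxylates, amino acids and nucleotides across the inner membrane. Slc25a10, the dicarboxylate carrier, exchanges malate and succinate for phosphate. Slc25a13 (citrin) is the aspartate and glutamate carrier of liver, and Slc25a23 exchanges ATP-Mg for phosphate under the control of calcium. Because these 3 moved together, the 250 bases before their annotated starts are shown 5' to 3' on the gene's strand from RefSeq (GRCm38.p6), at chr11:120491587-120491836 (plus strand), chr6:6217174-6217423 (minus strand) and chr17:57059864-57060113 (minus strand, 1 of 2 starts of Slc25a23 in the table). Capitals mark exact matches to any of 6 short motifs searched on both strands, namely the TATA box (TATAAA), the CCAAT box (CCAAT), the GC box (GGGCGG), the E-box (CACGTG), the half-site of the cyclic AMP response element (TGACG) and the NRF1 site. No match overlaps another in these windows.
Slc25a10: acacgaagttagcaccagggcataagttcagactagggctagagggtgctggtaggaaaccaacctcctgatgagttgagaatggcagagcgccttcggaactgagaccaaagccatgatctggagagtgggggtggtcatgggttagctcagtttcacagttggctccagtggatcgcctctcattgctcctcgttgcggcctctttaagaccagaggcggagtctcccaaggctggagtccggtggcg
Slc25a13: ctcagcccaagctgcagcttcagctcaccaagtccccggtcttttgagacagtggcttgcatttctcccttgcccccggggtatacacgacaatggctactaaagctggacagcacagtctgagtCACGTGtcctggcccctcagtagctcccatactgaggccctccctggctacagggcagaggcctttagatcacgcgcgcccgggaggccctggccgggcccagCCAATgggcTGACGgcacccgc
Slc25a23: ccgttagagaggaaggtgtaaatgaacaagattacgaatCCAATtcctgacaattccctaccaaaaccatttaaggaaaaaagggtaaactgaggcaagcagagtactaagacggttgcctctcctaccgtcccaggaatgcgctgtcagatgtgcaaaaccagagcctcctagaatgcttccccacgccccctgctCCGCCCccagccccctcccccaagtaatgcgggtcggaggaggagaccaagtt

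The Slc25a10 window held none of these motifs. The Slc25a13 window held the E-box, the CCAAT box and the half-site, and the Slc25a23 window held the CCAAT box and, on the other strand, the GC box. Of all 32851 windows of this length in the table, 6.02% held the E-box, 33.8% the CCAAT box, 17.8% the half-site, 32.7% the GC box, 12.4% the TATA box and 0.782% the NRF1 site. A match is a description of these letters and shows no binding, and the 3 windows share no motif that all of them hold.

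Slc25a10 read 355, 373, 230.0, 351 and 393 units in the wild type mice with vehicle and 50.9, 80.0, 48.3, 86.0 and 73.4 units with LPS. In mcad-/- mice it read 301, 474, 359.7, 355 and 406 units with vehicle and 45.8, 64.9, 38.4, 62.1 and 53.4 units with LPS. Every LPS mouse lay below every vehicle mouse of either genotype, and wild type vehicle mouse 3 was the lowest of its group. Slc25a10 fell 5.08-fold in wild type (log2 change -2.35 ± 0.19 SE, n = 5 per group, limma adjusted p = 3.04e-09) and 7.22-fold in mcad-/- mice (-2.85 ± 0.19, adjusted p = 1.6e-10). As whole liver was measured, fewer cells of a type and less RNA per cell cannot be told apart here or below.

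Slc25a13 read 1146, 1468, 999.5, 1450.5 and 1401 units with vehicle and 453, 463, 236, 143 and 237 units with LPS in wild type. The corresponding readings in mcad-/- mice were 1109.5, 999, 1431, 1188 and 859.5 units and 283, 268, 285, 378 and 159 units. The vehicle and LPS groups were apart in both genotypes, and the genotypes overlapped under either treatment. The fall was 4.59-fold in wild type (adjusted p = 7.86e-07) and 4.16-fold in mcad-/- mice (adjusted p = 1.71e-06).

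Slc25a23 read 348, 370.4, 127, 317 and 314 units with vehicle in wild type and 289, 399, 219, 314 and 227 units in mcad-/- mice. With LPS it read 17.5, 20.6, 15.8, 13.3 and 23.7 units and 17.4, 20.9, 8.89, 52.3 and 19.1 units. The LPS readings sat at the floor of the assay, with 2 wild type and 1 mcad-/- mouse under 16 units. The fitted falls of 15.5-fold and 14.1-fold (adjusted p = 9.69e-09 and 1.39e-08) therefore depend on that floor.

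**Figure D2:**
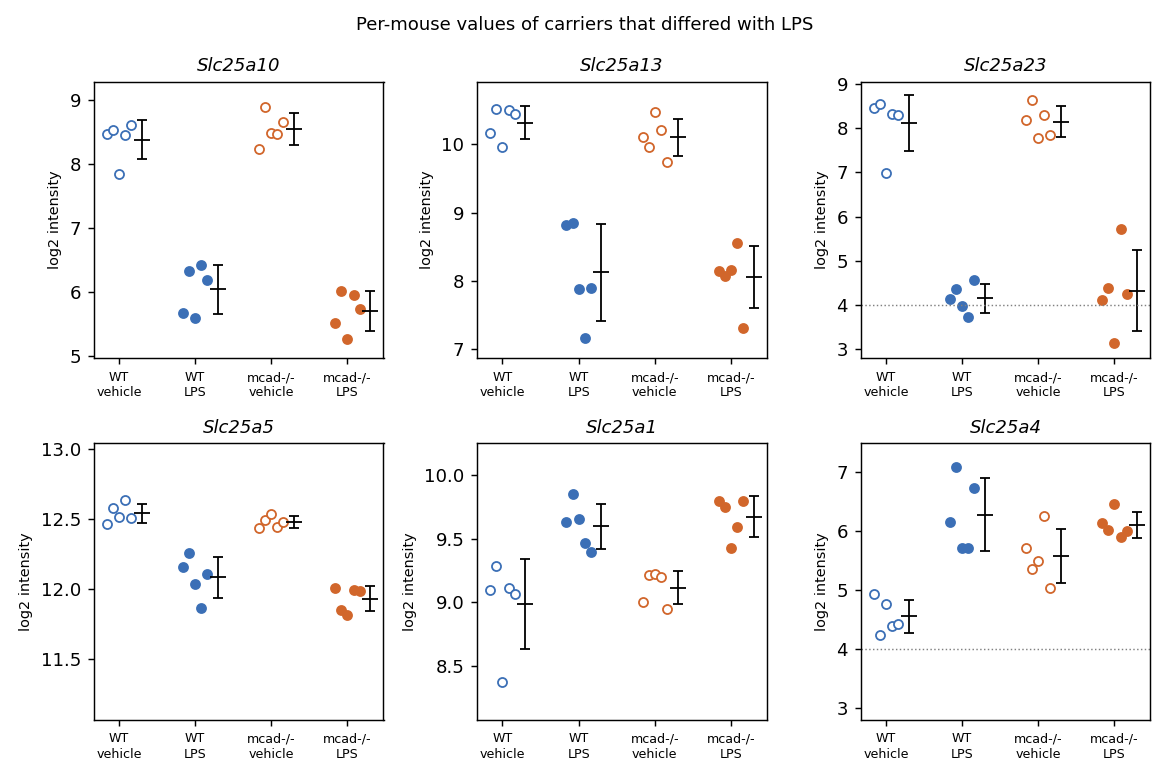
Log2 intensity of Slc25a10, Slc25a13, Slc25a23, Slc25a5, Slc25a1 and Slc25a4 in each of the 20 mice by group (open circles vehicle, filled circles LPS, blue wild type, orange mcad-/-), with the mean ± SD as a bar and the 16-unit floor as a dotted line where it is in range; the vertical axes differ between panels. The LPS mice lie below the vehicle mice for Slc25a10, Slc25a13 and Slc25a23, and wild type LPS mouse 2 is the highest for Slc25a4, at 135 units.

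Among the carriers of di- and tricarboxylates, Slc25a1, the citrate carrier that exports citrate for fatty acid and sterol synthesis, went the other way. It read 548, 626, 332, 555 and 536 units with vehicle and 792, 924, 807, 709 and 673 units with LPS in wild type, and 512, 595, 596, 587 and 494 against 892, 863, 689, 772 and 890.0 units in mcad-/- mice. The groups did not overlap in either genotype, and the rises were 1.53-fold (adjusted p = 0.000894) and 1.47-fold (adjusted p = 0.00188). Slc25a11, which exchanges oxoglutarate for malate in the malate-aspartate shuttle, fell by 0.47 (log2) in wild type (adjusted p = 0.0372) and by 0.72 in mcad-/- mice (adjusted p = 0.00278). The wild type call was lost (adjusted p between 0.0684 and 0.120) without any one of wild type vehicle mouse 2, 4 or 5 or wild type LPS mouse 3, 4 or 5.

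The enzymes that work with these carriers moved too. Of 6 tested enzymes of the malate-aspartate and glycerophosphate shuttles, 5 fell in wild type and 4 in mcad-/- mice and none rose. The median log2 changes were -1.14 and -0.77. Among all tested genes 24% and 27.6% fell and 40% and 38.1% rose. Cytosolic glycerol-3-phosphate dehydrogenase, Gpd1, fell by 1.85 and 2.82 (log2; adjusted p = 1.42e-05 and 6.04e-08). The cytosolic aspartate aminotransferase Got1 fell by 1.50 in wild type (adjusted p = 4.48e-05), and its change in mcad-/- mice was -0.57 (adjusted p = 0.0589). Of 7 tested genes that make or use citrate, 5 fell and none rose in each genotype, with medians of -0.77 and -0.66. ATP citrate lyase, Acly, which cleaves the citrate that Slc25a1 exports, had log2 differences of 0.04 and 0.20 (adjusted p = 0.864 and 0.353), while malic enzyme, Me1, fell by 1.29 and 1.01 (adjusted p = 9.94e-05 and 0.00103).

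Among the other carriers of aspartate and glutamate, Slc25a12 rose with LPS while Slc25a13 fell. Slc25a12 (aralar), the aspartate and glutamate carrier best known from brain and muscle, read 97.3 to 221 units with vehicle and 217 to 259 with LPS in wild type, and 133 to 245 against 205 to 329 units in mcad-/- mice. It rose 1.42-fold in wild type (adjusted p = 0.0259) and 1.51-fold in mcad-/- mice (adjusted p = 0.0108). Without wild type vehicle mouse 3, the mouse with the high actin ratio, the wild type change was 0.32 (log2; adjusted p = 0.0915), and without wild type LPS mouse 2, which carried muscle transcripts, it was 0.47 (adjusted p = 0.0565). Slc25a22, a glutamate carrier, differed by -0.11 in wild type (adjusted p = 0.704) and fell by 0.65 in mcad-/- mice (adjusted p = 0.0257). That call was lost (adjusted p between 0.0501 and 0.0773) without any one of mcad-/- vehicle mouse 1, 2 or 3 or mcad-/- LPS mouse 2, 3 or 5.

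Slc25a15, the ornithine carrier that joins the mitochondrial and cytosolic steps of the urea cycle, rose in mcad-/- mice while most genes of that cycle fell. It read 3895, 3324, 2549.7, 3675 and 3093 units with vehicle and 4182, 4264, 4821, 4754 and 3665 units with LPS in mcad-/- mice, and 2882, 2374, 3163, 2622 and 2501 against 3415, 2122, 2965, 3441 and 3398 units in wild type. The groups overlapped in both genotypes. Its change was 0.16 ± 0.14 SE in wild type (adjusted p = 0.318), and it rose by 0.40 in mcad-/- mice (adjusted p = 0.0182), or by 0.31 (adjusted p = 0.0627) without mcad-/- vehicle mouse 3. Its dimmer probe set gave a rise of 1.06 in mcad-/- mice (adjusted p = 0.0192). Of 6 tested urea cycle genes 4 fell in each genotype, beside 24% and 27.6% of all tested genes. Among them was Otc, the matrix enzyme that uses the imported ornithine, which fell by 1.04 and 1.00 (adjusted p = 5.54e-08 and 9.16e-08). Cps1, which makes carbamoyl phosphate for Otc, fell by 1.12 and 0.90 (adjusted p = 1.57e-09 and 2.83e-08). Nags, which makes the activator of Cps1, rose by 0.46 and 0.60 (adjusted p = 0.00761 and 0.000873). Slc25a44, a carrier of branched-chain amino acids, fell by 0.47 in wild type (adjusted p = 0.0216; -0.06 in mcad-/- mice, adjusted p = 0.773). That call was lost without wild type vehicle mouse 2 (adjusted p = 0.0529) or wild type LPS mouse 4 (0.0757), and a second probe set gave -0.12 (adjusted p = 0.550). Between genotypes with LPS, Slc25a44 differed by 0.14 (adjusted p = 0.623), and by -0.48 (adjusted p = 0.0437) on that second probe set.

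The adenine nucleotide translocators split. Slc25a5 (ANT2) read 5647, 6107, 5849, 6370.0 and 5818 units with vehicle and 4561, 4897, 4205, 3737 and 4414 units with LPS in wild type, and 5548, 5762, 5943, 5567 and 5714 against 4125, 3688, 3611, 4079 and 4052 units in mcad-/- mice. All LPS mice were below all vehicle mice, and the falls of 1.37-fold (adjusted p = 8.67e-05) and 1.46-fold (adjusted p = 1e-05) were small but seen on all 8 probe sets of the gene in both genotypes. Slc25a5 has near-identical copies elsewhere in the genome, which its probe sets may also read. Slc25a4 (ANT1), the form known from heart and muscle, read 30.5, 18.8, 27.1, 21.0 and 21.5 units with vehicle and 71.0, 135, 52.0, 52.6 and 106 units with LPS in wild type. In mcad-/- mice it read 52.1, 41.0, 44.8, 76.5 and 32.7 and 70.5, 64.5, 88.1, 59.1 and 63.6 units. Slc25a4 rose 3.31-fold in wild type (1.73 ± 0.25 SE, adjusted p = 5.69e-06), with no overlap between the groups, and its difference in mcad-/- mice was 0.53 (adjusted p = 0.0667). The highest reading was that of the mouse with muscle transcripts, and without it the wild type rise was 1.52 (adjusted p = 1.6e-05). In mcad-/- mice the difference passed on a second, nearly as bright probe set (0.90, adjusted p = 0.000683), on the mean of probe sets (0.50, 0.0106) and without mcad-/- vehicle mouse 4 (0.70, 0.0175), and did not pass on a dimmer probe set (0.44, 0.164). Slc25a3, which brings phosphate into the matrix for ATP synthesis, averaged 3295 units with vehicle and 3609 with LPS in wild type and 3390.1 and 3539.8 units in mcad-/- mice, with log2 differences of 0.13 and 0.06 with LPS (adjusted p = 0.113 and 0.453).

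Slc25a25, the ATP-Mg and phosphate carrier related to Slc25a23, read 174, 269, 143, 265 and 254 units with vehicle and 157, 139, 143, 81.3 and 123 units with LPS in wild type, and 425, 248, 539, 363 and 227 against 282, 163, 194, 290.3 and 212 units in mcad-/- mice. It fell by 0.77 (log2) in wild type (adjusted p = 0.0108) and by 0.62 in mcad-/- mice (adjusted p = 0.0352), beside -3.96 and -3.82 for Slc25a23. The groups overlapped in both genotypes. A dimmer probe set of Slc25a25 gave -0.22 in wild type (adjusted p = 0.395), where the call was lost, and -0.59 in mcad-/- mice (adjusted p = 0.0209). The mcad-/- call was lost (adjusted p between 0.0608 and 0.114) without any one of mcad-/- vehicle mouse 1, 3 or 4 or mcad-/- LPS mouse 2, 3 or 5.

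Carriers of coenzymes and nucleotides fell in part. Slc25a33, a pyrimidine nucleotide carrier, read 361, 476, 375, 446 and 423 against 252, 272, 195, 310.1 and 260.3 units in wild type and 483, 324, 674, 571 and 375 against 159, 201, 228, 332 and 160.4 units in mcad-/- mice, with falls of 0.70 and 1.17 (log2; adjusted p = 0.00546 and 4.79e-05). The groups of Slc25a33 were apart in wild type and overlapped in mcad-/- mice. Slc25a42, which brings coenzyme A into the matrix, fell by 0.59 and 0.85 (adjusted p = 0.0226 and 0.00189), and Slc25a16, a member linked to coenzyme A, by 0.85 and 0.55 (adjusted p = 0.000128 and 0.00561). The wild type call of Slc25a42 was lost (adjusted p between 0.0584 and 0.0696) without any one of wild type vehicle mouse 2, 4 or 5 or wild type LPS mouse 2. Slc25a36, another pyrimidine nucleotide carrier, fell by 0.73 in mcad-/- mice from 29.4 to 17.7 units (geometric means; adjusted p = 0.0115), and in wild type it averaged under 16 units in both groups. Slc25a26, which imports S-adenosylmethionine, rose in wild type from 23.6, 18.9, 14.8, 20.5 and 20.0 to 38.7, 36.8, 27.9, 30.3 and 23.5 units (0.68, adjusted p = 0.00109), close to the floor, and its difference in mcad-/- mice was 0.28 (adjusted p = 0.129). Slc25a17, the peroxisomal carrier of the family, had log2 differences of -0.24 and 0.10 (adjusted p = 0.474 and 0.770).

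Of the members with no settled substrate here, Slc25a46, an outer membrane protein tied to mitochondrial shape, fell by 0.43 in mcad-/- mice (adjusted p = 0.00523; -0.21 in wild type, adjusted p = 0.143). A second probe set of Slc25a46 gave -0.43 in wild type (adjusted p = 0.00854), which passed. Slc25a34 fell by 0.47 in mcad-/- mice (adjusted p = 0.0207), from a range of 21.8 to 27.4 units with vehicle to one of 13.5 to 23.1 units with LPS that reaches the floor, and lost the call without mcad-/- LPS mouse 4 or 5 (adjusted p = 0.0605 and 0.0687).

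Some inner membrane carriers that are not among the members taken by name fell with LPS as well. Of 9 tested uncoupling proteins and other inner membrane carriers, 4 fell in wild type and 5 in mcad-/- mice and none rose. That list includes Slc25a20, so it is not a set apart from the carrier family. Their medians were -0.37 and -0.45. Among all tested genes 24% and 27.6% fell and 40% and 38.1% rose. The sideroflexins Sfxn2 and Sfxn5, of a family that includes serine carriers, fell by 2.41 and 1.99 and by 2.10 and 1.79 (log2; adjusted p at most 2.55e-06). Mpc1, a subunit of the pyruvate carrier, fell by 0.87 and 0.86 (adjusted p = 9.61e-05 and 9.75e-05). Slc25a20, which was left out of the members by rule, fell by 0.69 in mcad-/- mice (adjusted p = 2.61e-05). It was also lower in mcad-/- than in wild type mice with LPS (difference -0.40, adjusted p = 0.0176). That call was lost without mcad-/- LPS mouse 5 (adjusted p = 0.0543) or without the mice with muscle or adipose transcripts (0.0870).

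Markers of other cells moved with LPS as well. Of all tested genes, 40% rose and 24% fell in wild type, and 38.1% rose and 27.6% fell in mcad-/- mice. The 4 tested neutrophil markers all rose in both genotypes, and the mean log2 level of the list lay between 2.29 and 2.99 with vehicle against 4.60 and 5.13 with LPS in wild type (mcad-/- 2.20 to 3.31 against 4.89 to 5.17). Of 9 Kupffer cell and macrophage markers, 6 fell in wild type and 8 in mcad-/- mice, and 1 rose in each. Of 7 sinusoidal endothelial markers, 4 rose and 1 fell in wild type, and 1 rose and 4 fell in mcad-/- mice. For 7 stellate cell and fibroblast markers, 2 rose and 1 fell in wild type, and 4 fell and none rose in mcad-/- mice. Of 6 hepatocyte markers, 3 and 4 fell and 1 rose. The widest of these falls was that of Cps1, given above with the urea cycle, while Apoa1 fell by 0.19 and 0.35 (adjusted p = 0.0254 and 0.000228). The part of these shifts in the carriers' changes was not tested.

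With vehicle, few carriers differed between the genotypes. In mcad-/- mice 4 of 31 members were higher (12.9%) and 1 was lower (3.23%), beside 9.81% and 6.39% of all tested genes (16.2% in either direction), and the members' median difference was 0.13 beside 0.04 for all tested genes. The groups did not overlap for the same 4 higher members and for 1 lower member (7.68% and 6.11% of all tested genes). That lower member was Slc25a47, which did not pass, while the genotypes overlapped for Slc25a45, which did. With LPS, 3 members were higher (9.68%) and 4 lower (12.9%), beside 8.75% and 11.8% of all tested genes (20.6% in either direction), with a median of -0.08 beside -0.03. There the groups did not overlap for 3 higher and 3 lower members (5.44% and 7.36% of all tested genes). These shares lie near the background, so the family as a whole is not singled out by genotype. Without the mice with muscle or adipose transcripts, 1 member, Slc25a51, was higher with LPS. Slc25a51 was higher and Slc25a45 lower in mcad-/- mice under both treatments.

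**Figure D3:**
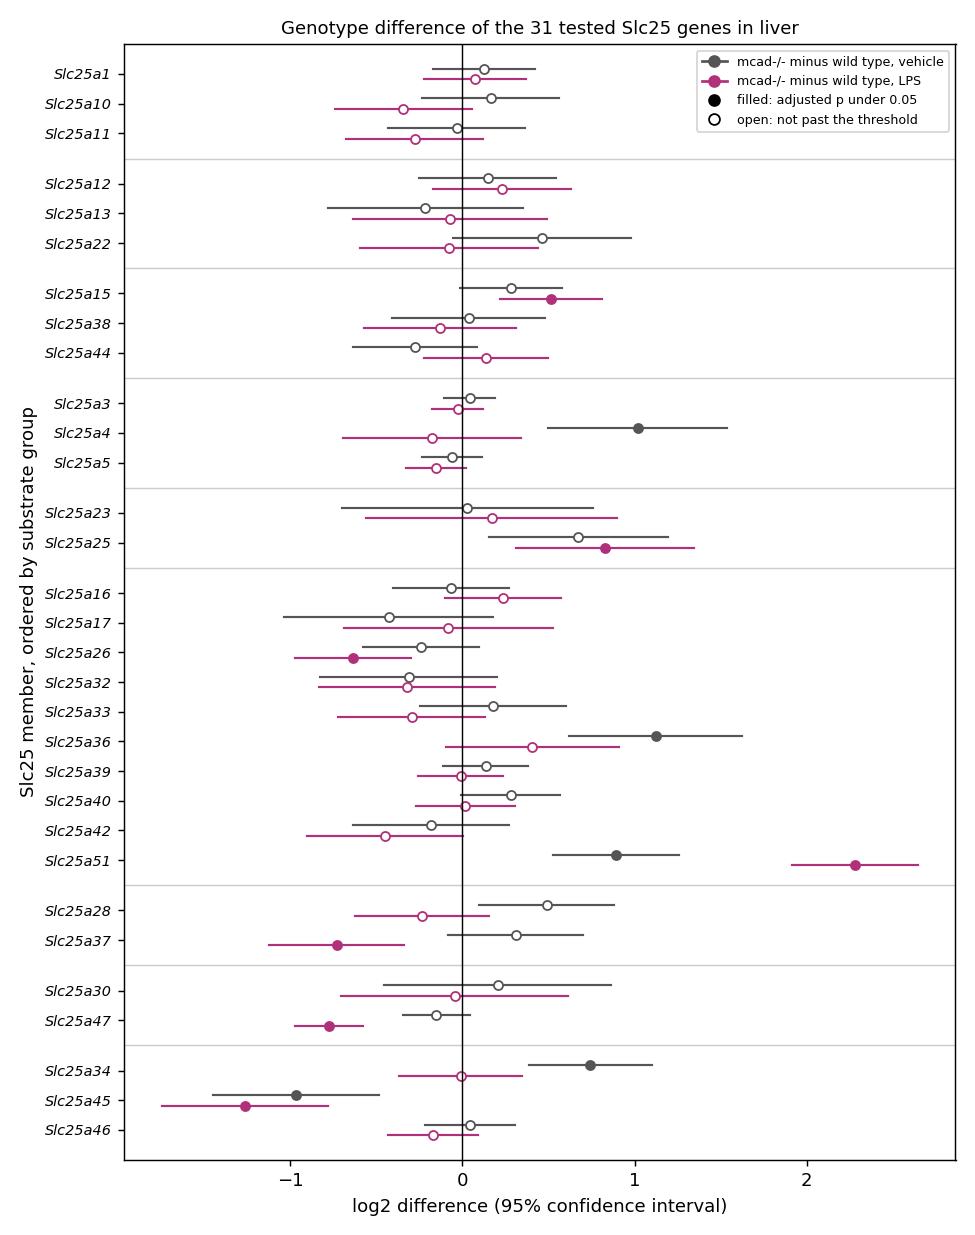
Log2 difference between mcad-/- and wild type mice for each of the 31 tested members with vehicle and with LPS, ordered by transported substrate; bars are 95% confidence intervals and filled points have an adjusted p under 0.05. Slc25a51 with LPS lies farthest to the right, at 2.28, and Slc25a45 with LPS farthest to the left, at -1.26.

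Slc25a51, which carries NAD into mitochondria, had the widest difference of the family. It read 458, 665, 515, 675 and 606 units in wild type and 1414, 1052, 957, 998 and 994 units in mcad-/- mice with vehicle. With LPS it read 239, 148, 328, 259 and 216 units in wild type and 1113, 945, 1333, 1017 and 1221 units in mcad-/- mice. The genotypes did not overlap under either treatment, and the LPS mice of wild type lay below their vehicle controls. Slc25a51 was 1.86-fold higher in mcad-/- mice with vehicle (0.89 ± 0.17 SE, adjusted p = 0.00129) and 4.85-fold higher with LPS (2.28 ± 0.17, adjusted p = 7.1e-09). LPS lowered it 2.51-fold in wild type (adjusted p = 1.87e-06), while in mcad-/- mice its change was 0.06 with a 95% interval of -0.30 to 0.43 (adjusted p = 0.771). The responses to LPS differed by 1.39 ± 0.25 SE (log2; adjusted p = 0.00264). The other two probe sets gave wild type falls with LPS of different size, -0.43 and -1.72 (adjusted p = 0.0490 and 3.05e-05). They disagreed with the brightest one on mcad-/- mice, where they rose with LPS by 0.65 and 1.11 (both past the threshold), and one of them gave a difference between genotypes with vehicle of 0.55 (adjusted p = 0.0507). On both of them the responses to LPS again differed, by 1.55 and 2.38 (adjusted p = 0.00223 and 0.00210).

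Slc25a47, a liver carrier of the uncoupling protein type, showed a smaller interaction of opposite sign. Its 250 bases before the start are shown in the same way (RefSeq, GRCm38.p6, chr12:108850879-108851128, plus strand), with 1 CCAAT box on the other strand in capitals.
Slc25a47: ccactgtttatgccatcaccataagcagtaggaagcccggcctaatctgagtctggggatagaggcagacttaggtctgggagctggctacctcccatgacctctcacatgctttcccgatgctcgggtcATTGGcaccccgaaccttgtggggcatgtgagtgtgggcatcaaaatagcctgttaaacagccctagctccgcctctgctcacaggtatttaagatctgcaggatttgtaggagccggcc

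Slc25a47 read 5591, 5686, 5647, 5940.3 and 5598 units with vehicle and 5134, 5321, 4642, 5953 and 5797 units with LPS in wild type, and 4787, 5423, 5253, 5197 and 4977 against 3644, 3023, 2638, 3428 and 3003 units in mcad-/- mice. The mcad-/- mice with LPS lay below every other mouse. It was 1.71-fold lower in mcad-/- than in wild type mice with LPS (adjusted p = 5.96e-06) and fell 1.64-fold with LPS in mcad-/- mice (adjusted p = 1.82e-06). In wild type the change with LPS was -0.09 (adjusted p = 0.416), and the responses differed by -0.62 ± 0.13 SE (adjusted p = 0.0110). With vehicle the genotypes did not overlap, but their difference of -0.15 did not pass (adjusted p = 0.308). The gene has 1 probe set on the array, of a type that can match more than one transcript.

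Slc25a37 (mitoferrin 1) brings iron into the matrix for haem and iron-sulphur clusters, and Slc25a28 (mitoferrin 2) does so in most tissues. Slc25a37 read 116, 105, 50.6, 100.4 and 109 units with vehicle and 75.0, 86.4, 87.9, 74.2 and 71.5 units with LPS in wild type, and 119, 110.3, 120.5, 147 and 84.2 against 46.9, 56.0, 37.8, 48.3 and 50.1 units in mcad-/- mice. It fell 2.41-fold with LPS in mcad-/- mice, without overlap (adjusted p = 7.31e-06), and there was 0.73 (log2) below wild type (difference -0.73, adjusted p = 0.00879). In wild type the change was -0.23 (adjusted p = 0.294), or -0.45 (adjusted p = 0.00805) without wild type vehicle mouse 3, the lowest of its group. The interaction was -1.04 ± 0.27 SE (adjusted p = 0.0304). It missed the threshold (adjusted p between 0.0501 and 0.0626) without any one of wild type LPS mouse 2, mcad-/- vehicle mouse 1, 3 or 4 or mcad-/- LPS mouse 3, and was -0.82 (adjusted p = 0.0171) without wild type vehicle mouse 3.

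Slc25a28 had log2 differences of 0.32 and -0.41 between LPS and vehicle (adjusted p = 0.147 and 0.0618), and the second value passed (adjusted p between 0.0305 and 0.0497) without any one of mcad-/- vehicle mouse 3 or 5 or mcad-/- LPS mouse 3 or 5. Of 11 tested genes of haem and iron-sulphur synthesis, 5 fell with LPS in wild type and 7 in mcad-/- mice and none rose. Among all tested genes 24% and 27.6% fell and 40% and 38.1% rose. Ferrochelatase, Fech, which inserts the iron into haem, fell by 1.25 and 1.50 (adjusted p = 4.53e-08 and 3.37e-09). Alad, an earlier enzyme of haem synthesis, fell by 1.08 and 1.62 (adjusted p = 1.83e-06 and 8.09e-09). Between genotypes with LPS, 5 of the 11 were lower in mcad-/- mice and none higher, beside 11.8% and 8.75% of all tested genes. Of these, Cpox, Alad and Uros differed by -0.72, -0.56 and -0.48 (adjusted p = 0.0243, 0.00816 and 0.00458). The calls of Cpox and Alad were lost without the mice with muscle or adipose transcripts (adjusted p = 0.102 and 0.0610). With the mean of probe sets the calls of Cpox and Uros were lost (adjusted p = 0.307 and 0.0891). Cpox also lost it (adjusted p between 0.0513 and 0.0604) without any one of wild type LPS mouse 1 or 5 or mcad-/- LPS mouse 3 or 5. Abcb10, an inner membrane transporter linked to haem synthesis and listed among the other inner membrane carriers, was lower in mcad-/- mice by 1.21 with vehicle and 0.84 with LPS (differences -1.21 and -0.84; adjusted p = 0.000525 and 0.00868). Of the erythroid markers, Alas2 alone was tested and fell with LPS by 0.84 and 1.26 (adjusted p = 0.00973 and 0.000362), while the other 3 on the array lay under 16 units in all 5 mice of every group. The part of red cell precursors in Slc25a37 was not tested.

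**Figure D4:**
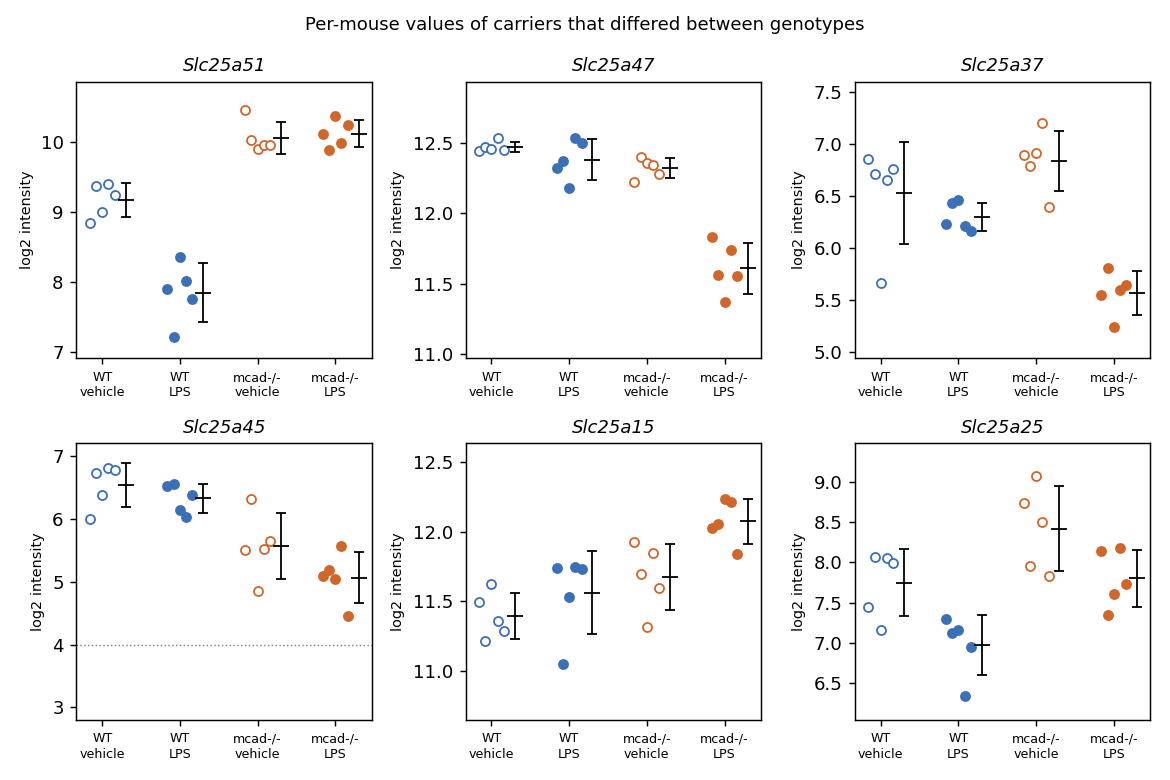
Log2 intensity of Slc25a51, Slc25a47, Slc25a37, Slc25a45, Slc25a15 and Slc25a25 in each of the 20 mice by group (open circles vehicle, filled circles LPS, blue wild type, orange mcad-/-), with the mean ± SD as a bar and the 16-unit floor as a dotted line where it is in range; the vertical axes differ between panels. The mcad-/- mice lie above wild type for Slc25a51 under both treatments, and the mcad-/- mice with LPS lie lowest for Slc25a47.

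Slc25a45, whose substrate is not settled here, read 63.8, 106, 83.4, 112 and 110.0 units in wild type and 45.6, 80.3, 28.8, 46.0 and 50.1 units in mcad-/- mice with vehicle, and 91.9, 94.4, 70.6, 65.8 and 83.7 against 34.2, 36.4, 32.8, 47.4 and 21.9 units with LPS. It was lower in mcad-/- mice, 1.96-fold with vehicle (adjusted p = 0.00649) and 2.40-fold with LPS (adjusted p = 0.000603), with no overlap with LPS. Slc25a15 was 1.43-fold higher in mcad-/- mice with LPS (adjusted p = 0.0137) and differed by 0.28 with vehicle (adjusted p = 0.199), and its genotypes were apart with LPS and overlapped with vehicle. Without the mice that carried muscle and adipose transcripts, wild type LPS mice 2 and 5, the difference with LPS was 0.40 (adjusted p = 0.0656), and the dimmer probe set of Slc25a15 gave 1.00 (adjusted p = 0.0692). Of 6 urea cycle genes, 2 were higher in mcad-/- mice with LPS: Asl by 0.47 and Ass1 by 1.23 (adjusted p = 0.0111 and 0.00344). With vehicle 1 was higher, Ass1 by 1.28 (adjusted p = 0.00299). Of all tested genes 8.75% were higher with LPS and 9.81% with vehicle. The brightest probe set of Ass1 read close to the floor.

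Slc25a25 was higher in mcad-/- mice with LPS by 0.83 (adjusted p = 0.0229) and differed by 0.67 with vehicle (adjusted p = 0.0716). The LPS call was lost without wild type LPS mouse 4 (0.67, adjusted p = 0.0663), mcad-/- LPS mouse 1 (0.74, 0.0584), mcad-/- LPS mouse 4 (0.73, 0.0550) or both mice with muscle or adipose transcripts (0.87, 0.0623). The vehicle difference passed without mcad-/- vehicle mouse 2 (0.79, adjusted p = 0.0475) or 5 (0.82, 0.0304). The dimmer probe set of Slc25a25 gave 0.45 with LPS (adjusted p = 0.154), which did not pass, and 0.83 with vehicle (adjusted p = 0.0126), which did. Slc25a26 was lower in mcad-/- mice with LPS (-0.64, adjusted p = 0.00818), with readings of 15.0, 19.4, 18.8, 25.7 and 22.1 against 38.7, 36.8, 27.9, 30.3 and 23.5 units that lie near the floor.

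Slc25a4, Slc25a36 and Slc25a34 were higher in mcad-/- mice with vehicle. Slc25a4 was 2.02-fold higher (adjusted p = 0.00771), from the readings given above, and with LPS its difference was -0.18 (adjusted p = 0.670). The responses of Slc25a4 to LPS differed by -1.19 ± 0.35 SE, which did not pass (adjusted p = 0.0580). It passed without wild type vehicle mouse 1 (-1.29, adjusted p = 0.0474), wild type LPS mouse 3 (-1.34, 0.0316), wild type LPS mouse 4 (-1.33, 0.0417) or mcad-/- vehicle mouse 5 (-1.33, 0.0323). Slc25a36 read 20.5, 11.2, 17.5, 8.36 and 13.4 units in wild type and 37.0, 35.5, 27.7, 22.5 and 27.0 units in mcad-/- mice (1.12, adjusted p = 0.00279). Slc25a34 read 12.5, 13.6, 15.6, 17.2 and 15.5 against 24.0, 27.4, 26.3, 24.7 and 21.8 units (0.74, adjusted p = 0.00488). The wild type readings of both were at the floor, so the folds depend on it.

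Among the enzymes around the carriers, 1 of 6 shuttle enzymes was higher and none lower in mcad-/- mice with vehicle. With LPS 1 was higher and 2 lower. Of all tested genes 9.81% were higher and 6.39% lower with vehicle, and 8.75% and 11.8% with LPS. Got1 was higher by 0.88 with vehicle and 1.81 with LPS (adjusted p = 0.0250 and 4.23e-05). The vehicle call of Got1 was lost (adjusted p between 0.0623 and 0.0701) without any one of wild type vehicle mouse 3 or mcad-/- vehicle mouse 1 or 4. Gpd1 differed by -1.54 with LPS (adjusted p = 0.000732), and Got2 by -0.34 (adjusted p = 0.0428). The call of Got2 was lost in 12 of 21 alternative runs. Among these were the runs without any one of wild type LPS mouse 2, 4 or 5 or mcad-/- LPS mouse 1, 2, 3 or 5 (adjusted p between 0.0504 and 0.128). Of 7 genes that make or use citrate, 3 were lower with vehicle, namely the fatty acid synthesis genes Fasn and Acaca and Me1, with differences of -1.30, -1.01 and -0.95 (adjusted p = 0.00327, 0.00691 and 0.00957). The mean over its probe sets gave -0.39 for Acaca (adjusted p = 0.112), where the call was lost. With LPS 2 of these 7 genes were lower, Idh1 and Cs, with differences of -0.64 and -0.39 (adjusted p = 0.0119 and 0.0253). Both calls were lost without the mice with muscle or adipose transcripts (adjusted p = 0.0809 and 0.189). The citrate carrier Slc25a1 differed by 0.13 with vehicle and 0.07 with LPS (adjusted p = 0.610 and 0.763).

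Markers of cells other than hepatocytes also differed between genotypes with vehicle. Of all tested genes 9.81% were higher and 6.39% lower in mcad-/- mice with vehicle. The mean log2 level of the sinusoidal endothelium list ran over 4.66 to 5.69 in wild type against 6.09 to 6.82 in the knockouts, with 6 of 7 tested markers higher. The Kupffer cell and macrophage list read 5.80 to 6.53 against 6.59 to 7.13, with 6 of 9 higher, and the stellate cell and fibroblast list 5.21 to 5.82 against 5.96 to 6.32, with 4 of 7 higher. With LPS none of the 9 Kupffer cell markers differed between genotypes by limma's adjusted p (2 at an unadjusted p under 0.05). There 1 of 7 endothelial and 2 of 7 stellate cell markers were lower in mcad-/- mice, and 1 of 4 neutrophil markers was higher. Of all tested genes 11.8% were lower and 8.75% higher. In their response to LPS, 4 of 7 endothelial markers were lower in mcad-/- mice, beside 2.76% of all tested genes. No hepatocyte marker of 6 differed with vehicle or LPS by limma's adjusted p (1 at an unadjusted p under 0.05). The part of these cells in the differences of Slc25a4, Slc25a34, Slc25a36, Slc25a37 and Slc25a51 was not tested.

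The test of the difference between the 2 responses to LPS called 1 of 31 members higher (3.23%) and 2 lower (6.45%) in mcad-/- mice, beside 1.36% and 2.76% of all tested genes (4.11% in either direction). These members, which without the mice with muscle or adipose transcripts numbered 1 higher and 1 lower, were Slc25a51, Slc25a37 and Slc25a47, described above. Other members that passed in 1 genotype only, such as Slc25a46 or Slc25a44, are not shown to differ between genotypes. The members' median interaction was -0.22 beside -0.07 for all tested genes.

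In all, 23 of the 31 tested members passed in at least 1 of the 5 comparisons. The matching share of all tested genes was not counted, and 65.7% of them passed in the LPS comparison of mcad-/- mice alone. The 8 that passed in none were Slc25a3, Slc25a17, Slc25a28, Slc25a30, Slc25a32, Slc25a38, Slc25a39 and Slc25a40. Slc25a39, the mitochondrial glutathione carrier, averaged 3729.7 units in wild type vehicle mice and 4092 in mcad-/- vehicle mice, and 4331 and 4299 units with LPS. Slc25a32, linked to folate and riboflavin metabolism, averaged 104, 95.9, 83.8 and 76.7 units in the order wild type vehicle, wild type LPS, mcad-/- vehicle and mcad-/- LPS. Slc25a38, a glycine carrier for haem synthesis, averaged 33.4, 39.0, 34.3 and 35.6 units in that order. Other probe sets passed with LPS for Slc25a39 in wild type (0.36, adjusted p = 0.0141) and, on a dim probe set, for Slc25a32 (-1.23 in wild type and -0.96 in mcad-/- mice, adjusted p = 0.00774 and 0.0321). A p that misses the threshold does not show that these levels are equal; for Slc25a30, an uncoupling-like member, the 95% interval of the LPS change ran from -1.24 to 0.08 in mcad-/- mice.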

How the data were processed

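Liver RNA of 20 mice was measured on 1 single-channel Affymetrix array each. The deposited table holds intensity on a linear scale for 45101 probe sets, made with GCRMA by the authors per the submitters' processing notes, with version and settings not given in the sources used here. GCRMA normalizes between arrays, so a change common to all transcripts is removed, and it pulls dim probe sets towards a floor. Values were taken to log2 with no pseudocount.

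Of the probe sets, 34945 had 1 gene symbol in the platform annotation, 932 had several and were not named, and 64 controls were left out. Gene names were checked against RefSeq, where 34741 matched by gene ID. Groups came from the sample labels. One linear model of 4 groups was fitted over 8774 genes with limma 3.58.1 in R 4.3.3 (two-sided, Benjamini-Hochberg threshold 0.05), and Acadm was compared by an exact permutation test. The pipeline was tested on simulated data. The number of mice limits the precision.

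The members, the lists of partner genes and the cell markers were chosen with earlier results of these data known. The genes named were the 5 largest rises and falls past the threshold in each comparison, a fixed panel of 16 members, Acadm and up to 3 genes of each partner list per comparison; the markers and other genes named were chosen after their values were seen.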

Additional observations from a re-analysis of the deposited data

Results flagged for a closer look

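In 8 of the 104 sets of 5 readings that 26 named members gave in 4 groups, the highest or lowest mouse stood apart from the rest by Dixon's test, while chance gives about 1 in 20. Wild type vehicle mouse 3, with a high actin ratio, was the low one for 4 members: Slc25a1 at 332 units (others 536 to 626), Slc25a10 at 230.0 units (others 351 to 393), Slc25a23 at 127 units (others 314 to 370.4) and Slc25a37 at 50.6 units (others 100.4 to 116). In the other groups, Slc25a16 was low at 358 units in mcad-/- LPS mouse 3 (others 429 to 461) and Slc25a46 high at 343 units in wild type LPS mouse 4 (others 255 to 273). Slc25a47 was high at 5940.3 units in wild type vehicle mouse 4 (others 5591 to 5686), and Slc25a51 at 1414 units in mcad-/- vehicle mouse 1 (others 957 to 1052).

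By the limma interaction test, the response to LPS differed between genotypes for 3 members. The response in mcad-/- mice minus that in wild type was 1.39 for Slc25a51, -0.62 for Slc25a47 and -1.04 for Slc25a37.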

How the results depend on the processing

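No called member changed direction under any alternative run. Of 48 calls of members over the 5 comparisons, 35 were kept in every alternative that tested the gene. The other 13 were lost in at least 1, as given beside each gene where a single mouse decided it. A gene that the filter of an alternative removed was not counted there as lost. The alternatives were no filter or a 64-unit filter, a mean over probe sets or each probe set alone, 2 further normalizations, a trended and robust prior, array weights, only the groups compared, each mouse left out in turn, the replicate number as a block and, chosen after seeing the data, leaving out each pair of mice that stood apart. Counts of members moved by over 1.5 times in a few of these, and the cause was not tested except where fewer members or mice entered. Members higher in mcad-/- mice with vehicle, 4, were 2 with the 64-unit filter, which left 26 members, and 8 with array weights, which also called 3 lower in place of 1. Members raised by LPS in wild type, 4, were 2 with the mean of probe sets, which left 28 members and in which Slc25a12 and Slc25a26 were not tested. Members with a lower LPS response in mcad-/- mice, 2, were 4 with array weights, 1 without the mice with muscle or adipose transcripts and 1 to 3 with each mouse left out in turn. Members higher in mcad-/- mice with LPS, 3, were 1 without the mice with muscle or adipose transcripts. Deviations of mice with the same replicate number had correlations from -0.12 to 0.28 over the 4 comparisons of groups. The highest, 0.27 and 0.28, were of mice 2 and 3 between genotypes with LPS. The labels do not say whether the numbers pair mice, and these correlations, with no reference to compare them to, cannot decide it. With the replicate block, the counts stayed at 4 higher and 1 lower, 3 and 4, 4 and 11, 3 and 15, and 1 and 2, and the LPS call of Slc25a25 in mcad-/- mice was lost (adjusted p = 0.0523). Levels under 16 units limit Slc25a23 with LPS and Slc25a26, Slc25a34, Slc25a36 and Slc25a40 throughout.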

Other observations

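Carriers of the Slc25 family reach the inner membrane through the outer membrane TOM pore, the small TIM chaperones of the intermembrane space and the TIM22 complex. Of 13 tested genes of this route, 4 rose and 4 fell with LPS in wild type, and 4 rose and 6 fell in mcad-/- mice. The median log2 changes were -0.02 and -0.15. Among all tested genes 40% and 38.1% rose and 24% and 27.6% fell. The small chaperones Timm9 and Timm10 fell by 1.05 and 0.49 in wild type and by 1.30 and 0.70 in mcad-/- mice (limma adjusted p at most 0.000773). Timm22, the channel subunit, rose by 0.92 and 0.75 (adjusted p = 2.36e-06 and 2.45e-05), and Timm10b rose by 1.60 and 1.34 (adjusted p = 3.85e-10 and 4.14e-09). The outer membrane channels through which carrier substrates pass were also mixed: Vdac1 fell by 0.73 and 0.62 (adjusted p = 8.67e-07 and 6.9e-06), and Vdac3 rose by 0.32 and 0.30 (adjusted p = 0.00236 and 0.00386).

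Promoter windows of 250 bases were matched for 33 of the 43 members, with 42 windows in all. Of these, 73.8% held the GC box, 47.6% the CCAAT box, 26.2% the half-site TGACG, 19.0% the E-box and 2.38% the TATA box on either strand, and none held the NRF1 site. Over all 32851 windows the shares were 32.7%, 33.8%, 17.8%, 6.02%, 12.4% and 0.782%. These shares are a description and were not tested, and a gene with several starts counts more than once.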
